A study of Mus musculus with 9 samples.

Results

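Among the 1 kb bins that anchored CTCF chromatin interactions in mouse embryonic stem cells, 859 of 34038 took part in at least 3 interactions to their right and at least 3 to their left on the chromosome map. These bins, called bidirectional anchors here, were chosen by the counts of called CTCF interactions on each side, so those counts and the other values of the same CTCF list are described and not tested. The comparison bins were the 1631 with 6 or more interactions on 1 side and 0 on the other, of which 810 looped rightward only and 821 leftward only. They are called 1-sided anchors.

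The cells were of the E14 line with the genotype CTCF AID, in which CTCF carries an auxin-inducible degron, and all groups share this genotype. They were kept in serum-free medium with leukemia inhibitory factor and the inhibitors PD0325901 and CHIR99021. MNase HiChIP, which ligates neighbouring ends of nuclease-cut chromatin and pulls down the ligated DNA with an antibody, was run with H3K27ac antibody on untreated cells (2 libraries) and on cells after 12 h of the auxin IAA (2 libraries). CTCF (2 libraries) and RAD21 (3 libraries) were profiled in untreated cells only. Each group had 1 list of called interactions, pooled over its libraries, so no value below has a spread between replicates, and intervals cover counting error only.

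CTCF is a zinc-finger protein that binds a non-palindromic DNA motif, so each bound site points along 1 strand. Cohesin, of which RAD21 is the kleisin subunit, extrudes chromatin loops and is held most often where 2 CTCF sites point toward each other. A forward-strand site thus tends to anchor loops to its right and a reverse-strand site loops to its left, and H3K27ac marks active promoters and enhancers. The CTCF list held 49630 interactions with a median of 14 contacts, the RAD21 list 23630, and the H3K27ac lists 36274 untreated and 28210 after IAA. All 8 embryonic stem cell marker genes checked, Nanog, Sox2 and Pou5f1 among them, had their start site in an H3K27ac anchor bin at both times. Of 15 marker genes of other lineages, 3 did so in untreated cells (Cdx2, Col1a1 and Eomes) and 0 after IAA.

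The bidirectional anchors carried core CTCF motif matches on either strand, whereas each group of 1-sided anchors carried them almost entirely on the strand that points along its loops. The core was searched as 14 positions with up to 1 mismatch on both strands of GRCm38, and the matches shown here are examples from bins with many interactions on their weaker side, both with matches on both strands and with matches on 1, and from the 1-sided bins with the most interactions. Each sequence is written 5′ to 3′ on the strand of the match, with the 14 matched bases in capitals and 10 bases on each side. The first pair shares 1 bin on chromosome 1 with 16 rightward and 24 leftward interactions.
chr1:135753208-135753241, forward strand: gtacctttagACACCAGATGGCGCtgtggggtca
chr1:135753078-135753111, reverse strand: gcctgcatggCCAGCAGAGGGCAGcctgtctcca
The next pair shares a bin on chromosome 10 with 21 rightward and 14 leftward interactions, and the one after it a bin on chromosome 15 with 10 and 13.
chr10:79925484-79925517, forward strand: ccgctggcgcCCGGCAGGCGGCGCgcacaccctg
chr10:79925400-79925433, reverse strand: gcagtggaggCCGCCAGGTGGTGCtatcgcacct
chr15:103182308-103182341, forward strand: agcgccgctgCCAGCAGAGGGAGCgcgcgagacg
chr15:103182359-103182392, reverse strand: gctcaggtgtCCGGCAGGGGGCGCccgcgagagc
Bidirectional bins on chromosomes 11 (25 rightward and 14 leftward interactions) and 8 (13 and 12) held a match on 1 strand only.
chr11:103102805-103102838, forward strand: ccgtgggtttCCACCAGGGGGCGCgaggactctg
chr8:104602811-104602844, reverse strand: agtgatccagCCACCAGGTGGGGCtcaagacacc
For comparison, a rightward-only bin with 26 interactions held the first of the following matches, and a leftward-only bin with 29 held the second.
chr5:113099700-113099733, forward strand: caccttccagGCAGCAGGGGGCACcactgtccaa
chr2:39373305-39373338, reverse strand: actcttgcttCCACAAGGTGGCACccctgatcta
A match is a description of the letters and does not show that CTCF bound there.

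By strand, 284 bidirectional anchors (33.1%) held forward matches only, 302 (35.2%) reverse matches only, 49 (5.70%, Wilson 95% interval 4.34 to 7.46) matches on both strands, and 224 (26.1%) no match. Of the rightward-only anchors, 68.6% held forward matches only and 1.36% reverse matches only. Of the leftward-only anchors, 67.0% held reverse matches only and 1.34% forward matches only. Matches on both strands occurred in 22 of the 1631 1-sided anchors (1.35%, 0.892 to 2.03) and in 1.02% of all 34038 anchor bins. The difference between bidirectional and 1-sided anchors was 4.36 percentage points (Newcombe 95% interval 2.83 to 6.17). It was not alike across classes of CTCF coverage, as given with the H3K27ac shares below. Any match occurred in 73.9% of bidirectional and 70.5% of 1-sided anchors, in 41.7% of all anchor bins, and in 6.75% of bidirectional bins moved by 10 kb. So, at up to 1 mismatch, 586 bidirectional anchors had matches on a single strand while looping both ways.

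**Figure D1:**
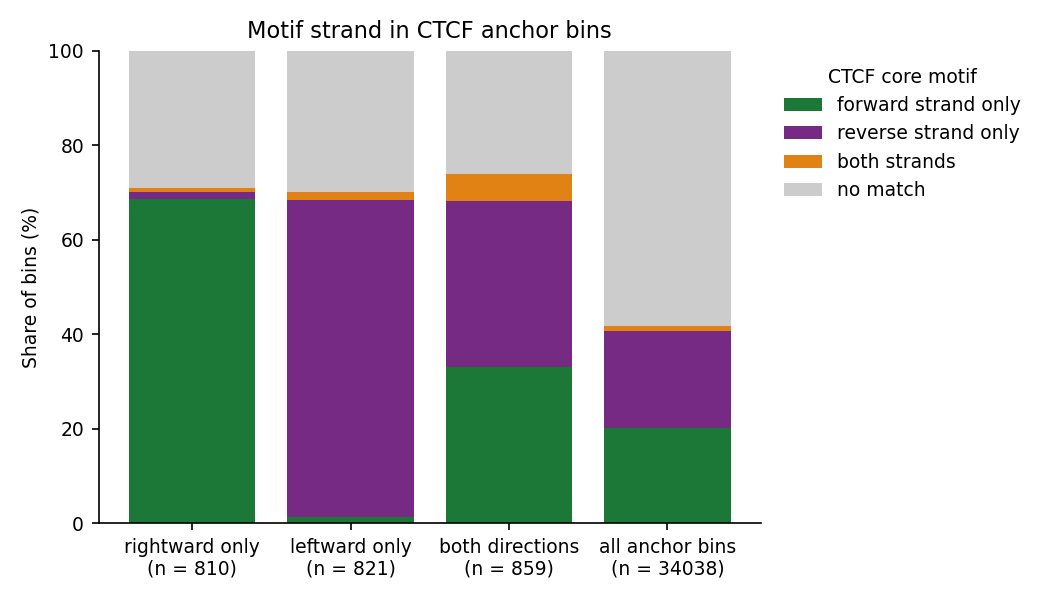
Share of bins (%, y axis) with a core CTCF motif match on the forward strand only, the reverse strand only, both strands or neither, for rightward-only, leftward-only, bidirectional and all CTCF anchor bins (x axis). The bidirectional bins split into 33.1% forward and 35.2% reverse, against 68.6% forward in rightward-only and 67.0% reverse in leftward-only bins.

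In the 49 bins with matches on both strands, the best match of each strand was taken, with the fewest mismatches and, at a tie, the leftmost. The median distance between the paired matches was 125 bp (range 3 to 796), and 1 pair overlapped. The reverse match lay before the forward one, so that the pair pointed apart, in 28 of 49 (57.1%, Wilson interval 43.3 to 70.0), and the pair pointed together in 21. The interval includes 50%. The median CTCF coverage of these bins, the number of HiChIP ends the authors' list gives for a bin, was 7123.

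The 2 directions were not used equally in bins with matches on 1 strand. The median rightward share of a bin's interactions was 62.5% (interquartile range 50 to 71.4) with forward matches only and 37.5% (27.3 to 50) with reverse matches only. It was 50% both with matches on both strands and with no match. Of the 586 bins with matches on 1 strand, 416 (71.0%) had more interactions along the motif than against it, 73 had equal numbers and 97 had more against it. In all, 4650 interactions ran along the motif and 2595 against it, so 64.2% ran along. Over all CTCF anchor bins the pooled rightward share was 83.3% with forward matches only and 17.1% with reverse matches only. The rule requires 3 interactions on either side, which pulls these shares toward the middle in the bidirectional bins.

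**Figure D2:**
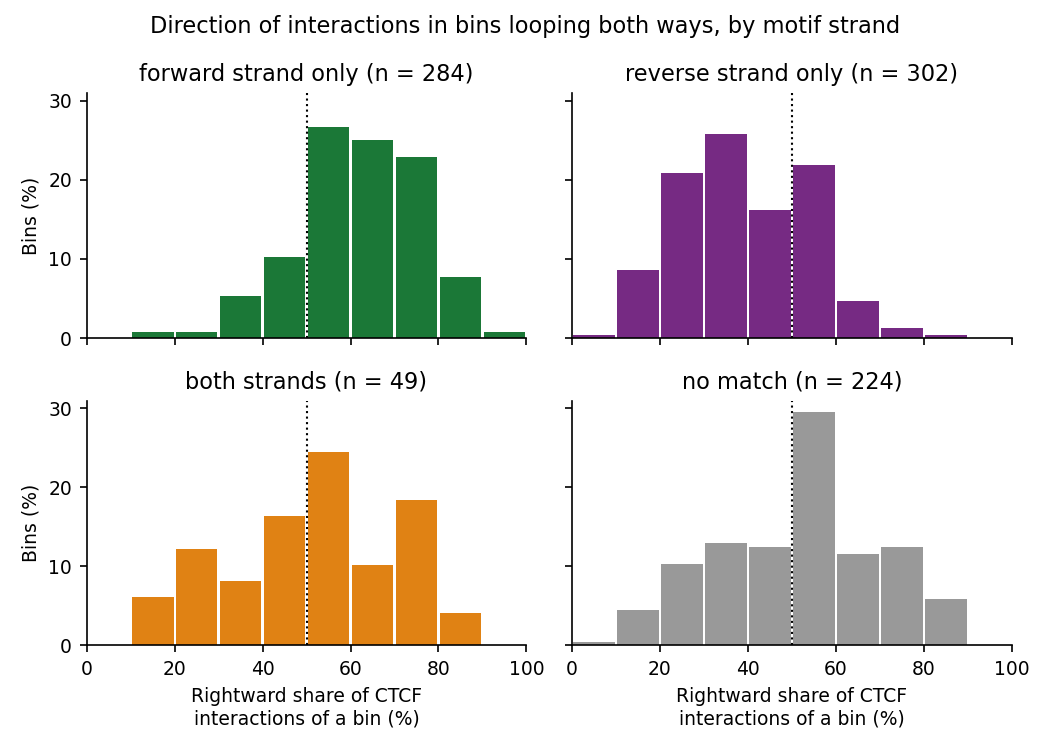
Share of bidirectional bins (%, y axis) by the rightward share of their CTCF interactions (%, x axis, in steps of 10 with a bin at exactly 50% counted to the right of the dotted line), in 1 panel for each motif class. Forward-only bins (n = 284) have a median of 62.5% and reverse-only bins (n = 302) one of 37.5%, while both other classes have a median of 50%.

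Where the partner of a bidirectional anchor had matches on 1 strand, the match more often pointed toward the anchor than away from it, on either side and for either strand of the anchor. Such partners made up 45.1% to 48.9% of the interactions, 4 classes of anchor strand and direction taken separately. Rightward partners with matches on 1 strand carried reverse matches in 74.7% of 985 cases from forward-only bins and in 78.0% of 651 cases from reverse-only bins. Leftward partners carried forward matches in 80.4% of 593 cases from forward-only bins and in 72.6% of 1131 cases from reverse-only bins. The same shares for all other CTCF anchor bins were 81.7% and 89.3% rightward and 88.4% and 82.3% leftward, each above that of the bidirectional anchors. These cases are interactions, and a partner can occur in more than 1 of them.

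On the interaction counts that chose them, the bidirectional anchors had a median of 4 rightward (range 3 to 34) and 5 leftward interactions (3 to 31). Their total had a median of 11 (6 to 40), against 8 (6 to 29) in the 1-sided anchors. Median CTCF coverage was 4932 (673 to 15533) in bidirectional anchors, 3175 (720 to 9589) in 1-sided anchors and 1190 in all anchor bins. The median contacts were 109 to the right and 107 to the left, and the median of a bin's median span was 128 kb to the right and 133 kb to the left. In 1-sided anchors the span was 189.5 kb for rightward-only and 181 kb for leftward-only bins. At the edge of the rule, the 465 bins with exactly 3 interactions on the weaker side had a median coverage of 4267 and a median of 9 interactions. The 1024 bins just outside, with 2 on the weaker side and 3 or more on the other, had a coverage of 3582.5 and 7 interactions. Inside against outside, start sites lay in 16.1% against 15.1% of bins, untreated H3K27ac anchors in 40.9% against 34.5%, and RAD21 interactions ran both ways from 53.3% against 41.2%.

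**Figure D3:**
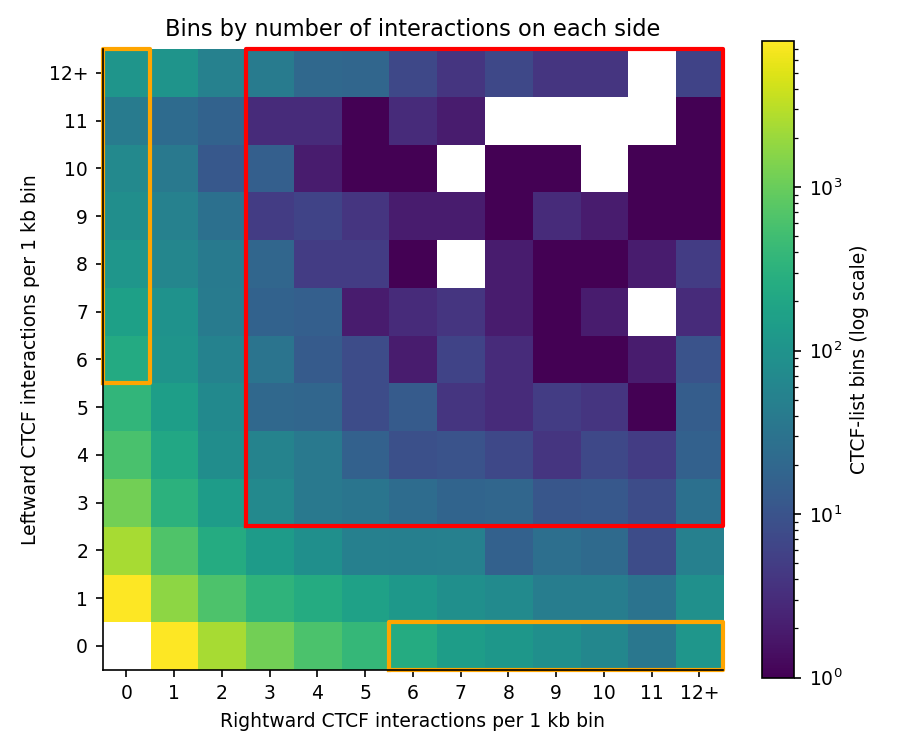
Number of CTCF anchor bins (colour, log scale) by their rightward (x axis) and leftward (y axis) interactions per 1 kb bin, with 12 or more pooled. The red frame marks the 859 bidirectional bins and the orange frames the 1631 1-sided bins, and most of the 34038 bins lie near the lower left corner.

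Bidirectional anchors lay mostly apart from each other. They formed 827 runs of adjacent bins, of which 797 were single bins and the longest held 3, and the median distance to the next bidirectional anchor was 143 kb. Another CTCF anchor bin of any kind lay directly beside 508 of them (59.1%). Chromosome 11 held the most (95) and chromosome Y held 0. Their share of the CTCF anchors of a chromosome ran from 0.370% on X and 1.09% on 13 to 3.95% on 15.

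The 6 bins with the most interactions on their weaker side, at least 10 kb apart, differed widely in setting. The bin chr1:135753001-135754000, intergenic and 12.6 kb from the start of the p53-induced gene Phlda3, had 40 interactions, a coverage of 10740, and 658 contacts to the right and 814 to the left. Its strongest partner was 34 kb to the left, chr1:135719001-135720000, with 246 CTCF and 107 RAD21 contacts. The bin chr18:36328001-36329000, 14.02 kb from the start of Cystm1, had 15 rightward and 21 leftward interactions and a strongest partner 197 kb to the right with 199 CTCF and 148 RAD21 contacts. Both bins held matches on both strands. The bin chr11:103102001-103103000, in an exon of Acbd4, held a forward match and was uneven, with 1278 contacts to the right and 311 to the left. RAD21 was uneven there too, with 14 interactions to the right and 1 to the left.

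The bin chr10:79925001-79926000, 1.54 kb from the start of Arid3a, which encodes a DNA-binding protein, had 646 contacts to the right and 390 to the left, and its strongest partner, 240 kb to the right, was another bidirectional anchor. The bin chr2:32757001-32758000 held the start site of Tor2a, a torsin-family gene, and no motif match. It had 12 rightward and 20 leftward interactions and 6 RAD21 interactions on either side. The bin chr8:104602001-104603000, in an exon of the cadherin gene Cdh16, had 13 rightward and 12 leftward interactions and 5 RAD21 interactions on either side. So 5 of the 6 named bins had at least 3 RAD21 interactions on either side, and the chromosome 11 bin had 1 on its weaker side.

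RAD21, measured with a separate antibody, anchored interactions in nearly all of these bins and usually on both sides. A RAD21 interaction started or ended in 838 of 859 bidirectional anchors (97.6%, 96.3 to 98.4), in 98.3% of 1-sided anchors and in 52.4% of all anchor bins. RAD21 interactions ran in both directions from 541 bidirectional anchors (63.0%, 59.7 to 66.1). They did so from 6.40% of all anchor bins and from 87 of the 1-sided anchors (5.33%, 4.34 to 6.53). The difference between bidirectional and 1-sided anchors was 57.6 percentage points. RAD21 interactions ran leftward only from 157 bidirectional anchors, rightward only from 140, and were absent from the list in 21. At least 3 RAD21 interactions on either side occurred in 67 bidirectional anchors (7.80%) and in 0.235% of all anchor bins. They occurred in 0 of 1631 1-sided anchors, which allows a share of up to 0.184% (3 counts of 1631). The RAD21 list is shorter than the CTCF list, and the lack of a RAD21 call on a side does not show that cohesin was absent there.

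The share with RAD21 on both sides was higher in bidirectional than in 1-sided anchors in each of 4 classes of CTCF coverage with limits at 2700, 3589 and 4918. It was 47.3% against 2.55% in the lowest class and 67.7% against 13.9% in the highest. Of the CTCF interactions of bidirectional anchors, the same bin pair was in the RAD21 list for 35.7% of 5225 to the right and 35.1% of 5477 to the left, close to the 34.4% of all 49630 CTCF interactions. Along the motif the share was 43.4% (42.0 to 44.9) and against it 23.2% (21.6 to 24.8), at median contacts of 19 and 18 and median spans of 143 and 130 kb. A like contrast was seen from all other CTCF anchor bins, with 42.2% and 42.7% along the motif and 20.1% and 19.6% against it for forward-only and reverse-only bins. In bidirectional anchors the order was the same at 10 to 19 contacts (20.7% against 10.8%), 20 to 39 contacts (60.0% against 34.2%) and 40 or more (92.4% against 68.0%). The spans differed in the upper 2 of these classes, with medians of 108.5 against 70 kb and 82 against 46 kb. Interactions between a rightward-only and a leftward-only anchor were in the RAD21 list in 63.6% of 538 cases, and interactions between 2 bidirectional anchors in 44.2% of 584. These 2 sets differed in median span (317.5 against 155.5 kb) and median contacts (19 against 25).

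Bidirectional anchors lay more often at gene starts than 1-sided anchors did. A protein-coding start site of GENCODE M21 lay in 146 of 859 (17.0%, 14.6 to 19.7), against 77 of 1631 (4.72%, 3.79 to 5.86), a difference of 12.3 percentage points (Newcombe interval 9.65 to 15.1). The share over all CTCF anchor bins was 14.4%, close to that of the bidirectional anchors. Of the other bidirectional anchors, 16.9% of all 859 lay in exons, 20.3% in introns and 45.9% between genes. The 146 bins held the starts of 150 genes, on the plus strand in 74 bins, the minus strand in 67 and both strands in 5. The median GC content was 51.1% against 48.5% in 1-sided anchors, and 16.1% against 3.56% met the sequence criteria for a CpG-rich bin. Over all CTCF anchor bins 12.9% met these criteria, nearer to the share of the bidirectional anchors.

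After Tor2a, the start-site bins with the most interactions on the weaker side, named after their values were seen, were those of Zbtb45 (13 rightward, 11 leftward), Vps18 (10 and 18), Atp5g2 (9 and 16), H2-DMa (10 and 9) and, in 1 bin, Gys1 and Ruvbl2 (9 and 9). Zbtb45 encodes a zinc-finger protein, Vps18 a subunit of the vacuolar sorting complexes, Atp5g2 a subunit of mitochondrial ATP synthase, H2-DMa a chain of an MHC class II chaperone, Gys1 a glycogen synthase and Ruvbl2 an ATPase of chromatin remodelling complexes. RAD21 interactions ran both ways from all 5 bins, with 11 to the right and 3 to the left at Zbtb45 and 1 and 8 at Vps18. The Zbtb45 bin anchored 20 H3K27ac interactions in untreated cells and 7 after IAA.

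H3K27ac interactions also ended more often in bidirectional anchors. In untreated cells 391 of 859 (45.5%, 42.2 to 48.9) lay in an H3K27ac anchor bin, against 442 of 1631 1-sided anchors (27.1%, with an upper interval limit of 29.3) and 24.6% of all anchor bins. The difference between bidirectional and 1-sided anchors was 18.4 percentage points (14.4 to 22.4). CTCF coverage moved with these shares. Within the classes of coverage the shares were 32.4% against 15.1% in the lowest, then 27.9% against 25.8%, 40.6% against 35.0% and 55.3% against 49.2%, with overlapping intervals in the upper 3. In bins with 15 or more interactions the shares were 57.3% and 55.1%. The start-site share was 13.5% against 0.727% in the lowest class. In the second it was 4.92% in bidirectional anchors, inside the interval of the 1-sided ones there (2.60 to 6.10). It was 13.1% against 6.60% in the third and 23.0% against 14.4% in the highest, with overlapping intervals in both. Matches on both strands occurred in 0 of 74 bins against 0.909% in the lowest class, then in 2.46% against 0.800% and 2.62% against 1.78%. These intervals overlapped. In the highest class the shares were 9.22% against 3.21%, and 40 of the 49 bidirectional anchors with such matches lay there.

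Across bins with 6 or more interactions, each of these readouts was higher where the weaker side had 5 or more interactions than where it had 0. With 0, 1, 2, 3, 4 and 5 or more on the weaker side, RAD21 on both sides was found in 5.33%, 23.6%, 44.3%, 53.3%, 68.7% and 79.9% of bins. The start-site shares were 4.72%, 8.16%, 12.0%, 16.1%, 15.9% and 20.1%, slightly lower at 4 than at 3. The untreated H3K27ac shares were 27.1%, 30.8%, 35.8%, 40.9%, 44.1% and 57.8%. The shares with matches on both strands were 1.35%, 1.94%, 2.94%, 4.30%, 3.59% and 11.1%, again lower at 4 than at 3. Median coverage moved with them, from 3175 at 0 to 4267 at 3 and 6869 at 5 or more, and its part in these differences was not tested beyond the coverage classes above.

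**Figure D4:**
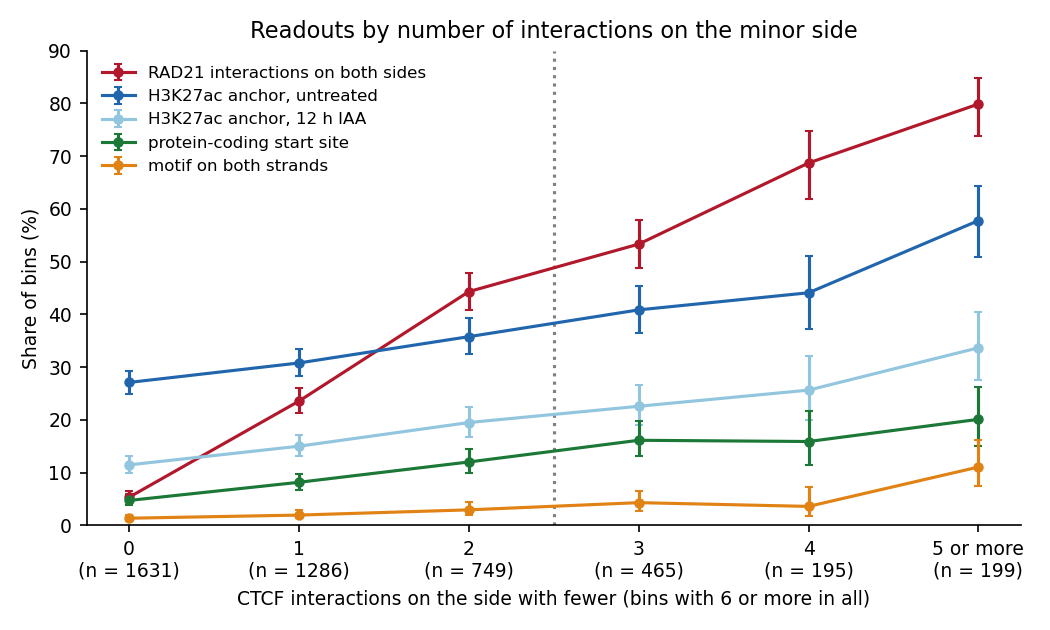
Share of bins (%, y axis, points with 95% Wilson intervals) with each readout by the number of CTCF interactions on the side with fewer (x axis), over bins with 6 or more interactions in all; the dotted line marks the limit for bidirectional bins. RAD21 on both sides goes from 5.33% at 0 to 79.9% at 5 or more, and the other 4 readouts are also higher at 5 or more than at 0.

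After 12 h of IAA fewer bidirectional anchors held an H3K27ac anchor. Their number was 222 of 859 (25.8%, 23.0 to 28.9) against 391 before, with 198 in both lists, 193 in the untreated list only and 24 in the IAA list only. So 50.6% (45.7 to 55.6) of the untreated ones were found again, against 36.2% (31.9 to 40.8) of the 442 in 1-sided anchors and 61.6% of all 27304 untreated H3K27ac anchor bins. The IAA list as a whole was shorter, with 0.778 times as many interactions. With the untreated list shortened to the same length, the untreated share was 38.9%, still above the 25.8% after IAA. With a start site in the bin, 72.6% of 95 were found again (62.9 to 80.6), close to the 76.3% of CTCF anchor bins with a start site. Without one, 43.6% of 296 were found again (38.1 to 49.3), against 54.9% of CTCF anchor bins without a start site. The single H3K27ac interactions that ended in a bidirectional anchor were found again in 362 of 1255 cases (28.8%, 26.4 to 31.4), those in a 1-sided anchor in 25.5% of 1138 and all others in 44.0%.

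H3K27ac interactions that passed over a bidirectional anchor, with the bin wholly between their ends, made up 1997 of 36274 in untreated cells (5.51%, 5.28 to 5.74) and 1655 of 28210 after IAA (5.87%, 5.60 to 6.15). The difference was 0.361 percentage points (0.0018 to 0.724). It was 0.656 (0.278 to 1.03) with H3K27ac lists of equal length and 0.668 when taken within span classes. With H3K27ac interactions at q of 0.01 or less only, it was 0.332 and the interval included 0 (-0.0835 to 0.752). The share of contacts went from 4.06% to 4.28%. For 1-sided anchors the share went from 5.77% to 7.09%, a difference of 1.32 percentage points (0.935 to 1.70). The difference between these 2 differences was not tested. By span, the interval of the difference for bidirectional anchors lay above 0 at spans over 50 to 100 kb only (10.3% to 12.4%), and over 100 to 200 kb the shares were 18.3% and 18.2%. For 1-sided anchors it lay above 0 in all 6 span classes, with 28.9% and 35.6% over 200 kb. The share crossing a bidirectional anchor was higher after IAA on 13 of 20 chromosomes with H3K27ac interactions, and that crossing a 1-sided anchor on 15 of 20.

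A few bins carried much of the crossing. In untreated cells 412 of 859 bidirectional anchors (48.0%) were crossed at least once, after IAA 397 (46.2%), and 363 were crossed in neither list. For 1-sided anchors the shares were 35.8% and 33.3%, and 924 of 1631 were crossed in neither list. Counts of crossings are not compared between the lists, as the IAA list is shorter. The 10 most crossed bins held 734 of 2534 crossings (29.0%) in untreated cells. The most crossed in the untreated list, named after its values were seen, was chr12:86871001-86872000, an intergenic bin with no motif match, 6 rightward and 4 leftward interactions, crossed 131 times in untreated cells and 67 times after IAA. After IAA the highest count in any of the bins was 74.

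The number of H3K27ac interactions over a point was lower at a bidirectional anchor than beside it in untreated cells. The mean was 2.95 crossings at the bin against 3.95 at 40 to 100 kb on either side, a ratio of 0.747. After IAA the means were 2.51 and 2.59, a ratio of 0.968. Against the nearer flanks, 4 to 20 kb away, the ratio was 0.704 in untreated cells (mean 4.19) and 0.852 after IAA (mean 2.94), so the count was lower at the bin than just beside it at both times. Interactions that end in the bin do not cross it. A subset of 444 bidirectional anchors had no H3K27ac anchor in either list. It was chosen after the values were seen and filtered on these same lists. Its ratio to the near flanks was 0.787 in untreated cells and 0.975 after IAA. To the flanks at 40 to 100 kb its ratio was 0.441 in untreated cells and 0.726 after IAA. After IAA the mean in this subset was 1.00 at the bin, 1.03 at 4 to 20 kb and 1.38 at 40 to 100 kb. At 4 kb to the left it was 0.977, so the bin was not the lowest point there after IAA. The flanks of all bidirectional anchors were alike, with 3.79 crossings to the left and 4.11 to the right. Around 1-sided anchors, turned so that their CTCF loops run to the right, they were 1.47 behind the anchor and 4.28 on the loop side, and after IAA 1.14 and 2.53. The mean at the 1-sided bin itself, 1.58 in untreated cells and 1.54 after IAA, lay between those of its flanks, on a step and not at a low point. The IAA list is shorter, so levels are not compared between the lists and ratios within a list are given.

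**Figure D5:**
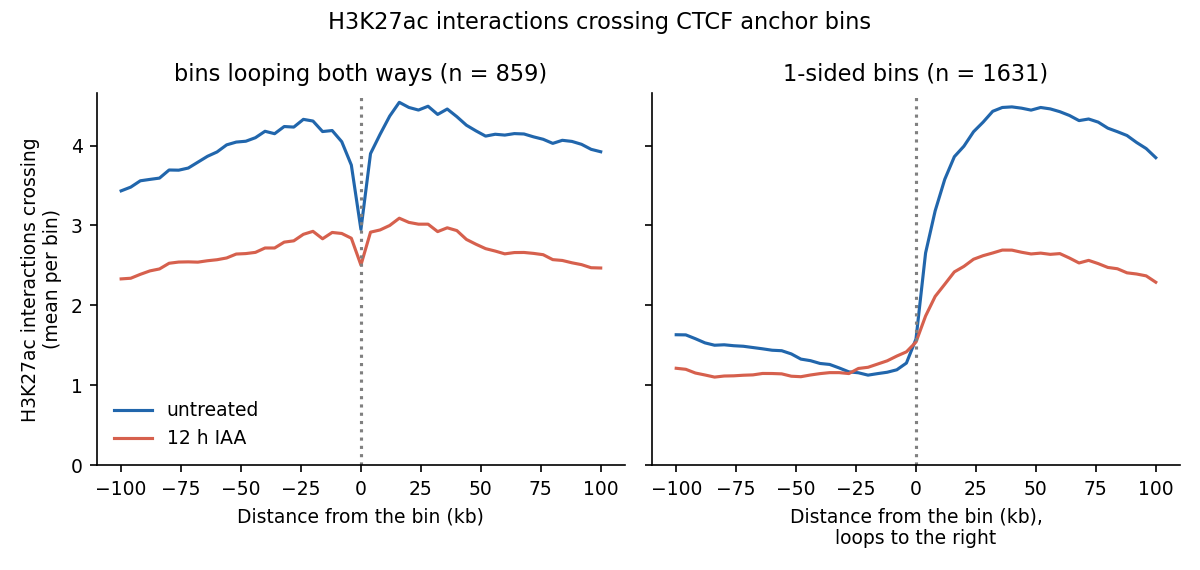
Mean number of H3K27ac interactions crossing a point per bin (y axis) against distance from the bin (kb, x axis), around bidirectional bins (left) and 1-sided bins turned so that their CTCF loops run rightward (right), in untreated cells and after 12 h of IAA. The count at bidirectional bins has a ratio to the flanks at 4 to 20 kb of 0.704 in untreated cells and 0.852 after IAA, and to those at 40 to 100 kb of 0.747 and 0.968, and the 1-sided bins show a step from 1.47 to 4.28 in untreated cells.

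Contact counts of the H3K27ac interactions present in both lists were compared with an exact two-sided binomial test over all 15551 of them with Benjamini-Hochberg adjustment, which compares the 2 pooled lists and not the conditions. Over all of them 0.135% were called, 0.0965% higher and 0.0386% lower after IAA. Of the 679 that crossed a bidirectional anchor 0 were called by this exact test, and 36 (5.30%) had an unadjusted p under 0.05, against 4.41% over all. Their median log2 ratio of IAA to untreated contacts was 0.03, equal to the median of 0.03 over all shared interactions. Scaled to the totals of the authors' model instead, 2 were called, both lower, while the calls over all turned from 15 higher and 6 lower to 6 higher and 54 lower. Of the 583 that crossed a 1-sided anchor and no bidirectional one, 2 were called higher and the median was 0.14. Of the 362 that ended in a bidirectional anchor 1 was called, 29 (8.01%) had an unadjusted p under 0.05 in this exact test, and the median was -0.06. Interactions that ended in a 1-sided anchor and no bidirectional one were alike. Among these 290, 1 was called lower, 16 (5.52%) had an unadjusted p under 0.05 in this exact test, and the median was -0.09. The 1 called at a bidirectional anchor joined 2 intergenic bins, chr15:77336001-77338000 and chr15:77358001-77360000. It had 82 contacts in untreated cells and 34 after IAA, a log2 ratio of -1.24 (exact binomial test, adjusted p = 0.0147). That anchor, chr15:77336001-77337000, also named after its values were seen, had the highest CTCF coverage of all 859, 15533, with 7 rightward and 18 leftward interactions and matches on both strands.

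Bidirectional anchors near the genes listed for these cells were set beside those near all genes, without a test of the difference. Of 24 pluripotency genes, 0 had their start in one, against 0.687% of all 21840 protein-coding genes. Within 50 kb of one lay 2 of the 24, Nanog and Sox2 (8.33%), against 9.11% of all genes. For 1-sided anchors the figures within 50 kb were 12 of 24 (50%) and 14.6%. The bin chr6:122720001-122721000, 12.4 kb from the start of Nanog, a homeobox factor of pluripotency, had 3 rightward and 5 leftward interactions. Its strongest partner lay 51 kb to the left with 142 CTCF and 79 RAD21 contacts. It was crossed by 75 H3K27ac interactions in untreated cells and 61 after IAA, and it anchored 3 and 0. The bin chr3:34639001-34640000, 10.4 kb from the start of Sox2, another core pluripotency factor, had 3 rightward and 4 leftward interactions, 0 RAD21 interactions and no motif match. Its strongest partner was chr3:34760001-34761000, 121 kb to the right, with 20 contacts.

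Of the 39 annotated Hox genes, which pattern the body axis, 9 lay within 50 kb of a bidirectional anchor, all in the Hoxc cluster (23.1%, against 9.11% of all genes), and 34 (87.2%) within 50 kb of a 1-sided one. These 9 share 2 bins. The bin chr15:102966001-102967000 held the start site of Hoxc10 and a forward match, with 19 rightward and 3 leftward CTCF interactions and 9 and 1 RAD21 interactions. The bin chr15:102987001-102988000, in a Hoxc5 intron, had 11 rightward and 3 leftward CTCF interactions, and both bins anchored H3K27ac interactions in untreated cells (2 and 1) and 0 after IAA.

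Of 15 genes of cohesin and CTCF, 2 (13.3%) had a bidirectional anchor within 50 kb, against the 9.11% of all genes. Stag1, which encodes a cohesin subunit, had its start in one and Ctcf itself had one 13.6 kb away. The Stag1 bin, chr9:100643001-100644000, was leftward-weighted, with 167 contacts on 7 leftward and 26 contacts on 3 rightward interactions, although its 2 motif matches were both on the forward strand. It anchored 9 H3K27ac interactions in untreated cells and 5 after IAA. The bin near Ctcf, chr8:105622001-105623000, had 13 rightward and 4 leftward interactions and held a forward match. Of 16 genes of later lineages 1 (6.25%) had one within 50 kb. It was Eomes, a T-box factor of early mesoderm and endoderm, and the anchor 10.7 kb from its start had 3 rightward and 8 leftward interactions and a reverse match. That bin anchored 2 H3K27ac interactions in untreated cells and 0 after IAA.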

How the data were processed

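The 9 MNase HiChIP libraries of E14 cells are deposited as 1 set of called interactions per group, pooled over replicates. Per the file headers, contact counts and bin coverage are deposited as whole-number counts without scaling. Each q-value is the authors' own and under 0.05 throughout. Bins are 1 kb for CTCF and RAD21 and 2 kb for H3K27ac. The submitters' processing notes name Trim Galore, BWA, MACS2, deepTools and mm10. The names of the deposited lists give FitHiC as the interaction caller. Its settings, and the versions and roles of the other tools, are not given in the sources used here. Coordinates were read on GRCm38 (0 anchors lay beyond a chromosome end) with the GENCODE M21 basic annotation.

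From these lists the sides of each bin, the overlaps, the crossings and the motif matches were counted with Python 3.11.15, numpy 2.4.6, pandas 2.3.3, scipy 1.17.1, pysam 0.24.0, samtools 1.23.1 and matplotlib 3.10.9. Shares carry Wilson 95% intervals and differences Newcombe intervals. Reads carried no molecular identifiers and bins are not replicates, so intervals cover counting error only. The motif core is searched without regard to binding. A CpG-rich bin has a GC content over 50% and an observed to expected CpG ratio over 0.6, with the expected number taken from the GC content. The binomial test was scaled to the totals over the shared interactions and tested on simulated data. Precision is limited by contact counts with a median of 13 to 14 per interaction. Bins named with coordinates are the 6 with the most interactions on the weaker side at least 10 kb apart, those near the listed genes, and those said to be named after their values were seen. The bins and gene lists were chosen with earlier results of these data known. The alternatives were 36 planned and 5 chosen after seeing the data.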

Additional observations from a re-analysis of the deposited data

How the results depend on the processing

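No paired analysis was possible because each group has only 1 pooled list, without replicate numbers. For that reason no replicate could be left out in turn. Of 41 alternative values, 24 moved and are given here. Of the other 17, the 2 shares after IAA with H3K27ac lists of equal length could not move, because that list was already the shorter one. The cause of the other shifts was not tested beyond each alternative's own construction. With 5 or more interactions on either side (199 bins), RAD21 on both sides was 79.9%, start sites 20.1%, matches on both strands 11.1%, and crossing 1.73% in untreated cells and 1.95% after IAA. With CTCF interactions at q of 0.01 or less (466 bins), the RAD21 anchor share was 98.7%. With H3K27ac interactions at q of 0.01 or less, crossing was 5.12% and 5.45%. With at least 10 contacts in the H3K27ac lists, untreated H3K27ac anchors were 34.5% and crossing 4.14% and 4.61%. With H3K27ac lists of equal length, untreated anchors were 38.9% (chosen after seeing the data) and untreated crossing 5.21%. Without the 10 most crossed bins (chosen after seeing the data), crossing was 4.12% and 4.55%. Start sites within 1 kb gave 25.4%. A neighbouring bin counted as an H3K27ac anchor gave 51.6% in untreated cells and 33.5% after IAA, and peak anchors alone 40.6%. Matches on both strands were 0.466% with no mismatch, 33.6% with up to 2 mismatches and 9.31% with 500 bp added. In 1-sided anchors they were 0.0613%, 20.8% and 3.19% at these settings. Scaled to the model totals, 2 crossing interactions were called, both lower, with a median log2 ratio of -0.22, the median over all shared interactions also being -0.22. The difference in crossing was above 0 as a value in each alternative run, but with H3K27ac interactions at q of 0.01 or less its interval included 0 (-0.0835 to 0.752).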
